A study of Penicillium citrinum with 6 samples.

Results

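The sorbicillinoid gene cluster of *Penicillium citrinum* is described here as the 7 genes with consecutive numbers PCI_3051 to PCI_3057, out of 9385 genes in the deposited tables. The product names of these 7 genes are those of the sorbicillinoid cluster known from *Penicillium chrysogenum*: sorD, transcription factor 2, sorT, sorA, sorB, sorC and transcription factor 1, in the order of their numbers. The genes were chosen by number and name with their values already known, so their own levels and changes are given as a description and carry no test. The 6 libraries hold total RNA of mycelium labelled wild type, 2 libraries in each of 3 groups. All cultures were started from conidia and kept at 25 °C. TL3D and TL2D come from tobacco leaves, harvested 3 and 2 days after inoculation, and CK2D comes from Czapek-Dox plates, a defined sucrose and nitrate medium, after 2 days. The group codes were matched to leaf and plate through the sampling days, since leaves alone were sampled at day 3. The labels do not say whether the replicates were separate cultures or plants, so a p-value here reflects the spread among these libraries alone, which may be technical.

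Sorbicillinoids are yellow polyketide pigments of several filamentous fungi, and they are secreted into the medium. In *P. chrysogenum* the highly reducing polyketide synthase sorA builds a short chain that the non-reducing synthase sorB extends and closes to a sorbicillin-type ring. The monooxygenase sorC then oxidises that ring to sorbicillinol, and the FAD-linked oxidoreductase sorD acts on later products. sorT belongs to the major facilitator family of membrane transporters, transcription factor 1 is an activator that the cluster needs for its expression, and transcription factor 2 is a further regulator.

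All 7 genes had less transcript in both leaf groups than on plates, by very different amounts. The 5 genes for synthesis and transport were between 110-fold and 2186-fold lower in TL3D, and between 123-fold and 2210-fold lower in TL2D, as ratios of mean FPKM. Transcription factor 2 was 33.4-fold lower in TL3D and 31.4-fold lower in TL2D than in CK2D. Transcription factor 1 was 3.64-fold lower in TL3D and 3.26-fold lower in TL2D. The values are FPKM, which correct for a gene's length and a library's size, so levels of different genes can be set side by side.

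Transcription factor 1 (PCI_3057) had 14.8 and 16.0 FPKM in TL3D and 20.2 and 14.1 FPKM in TL2D, against 51.8 and 60.2 FPKM in CK2D. Its leaf libraries lay below both plate libraries and overlapped each other. It was the cluster's highest gene in all 4 leaf libraries and its lowest in both plate libraries. Transcription factor 2 (PCI_3052) had 3.62 and 4.25 FPKM in TL3D and 4.35 and 4.02 FPKM in TL2D, against 128 and 135 FPKM in CK2D. The leaf groups overlapped, and both stood apart from the plates.

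The synthase gene sorA (PCI_3054) had 1.96 and 2.06 FPKM in TL3D and 1.66 and 1.46 FPKM in TL2D, against 211 and 233 FPKM in CK2D. Each leaf group was low and tight, and the TL3D values lay just above those of TL2D. The other synthase gene, sorB (PCI_3055), had 1.86 and 1.96 FPKM in TL3D and 2.35 and 1.83 FPKM in TL2D, against 241 and 272 FPKM in CK2D. The synthases kept close to the same level as each other in every library. The ratio of sorB to sorA in FPKM was 0.948 and 0.952 in TL3D, 1.41 and 1.26 in TL2D, and 1.15 and 1.17 in CK2D. The levels of both genes differed more than 100-fold between leaf and plate.

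sorC (PCI_3056) had 0.934 and 0.758 FPKM in TL3D and 0.663 and 0.385 FPKM in TL2D, against 281 and 329 FPKM in CK2D. sorD (PCI_3051) had 0.659 and 0.578 FPKM in TL3D and 0.692 and 0.369 FPKM in TL2D, against 596 and 666 FPKM in CK2D. These are the oxidising enzymes of the pathway, and they were the cluster's lowest genes in every leaf library. The transporter gene sorT (PCI_3053) had 1.34 and 1.69 FPKM in TL3D and 1.41 and 1.58 FPKM in TL2D, against 3157 and 3456 FPKM in CK2D. Its leaf groups overlapped, and on plates it stood far above every other member. In bulk RNA, fewer cells that express the cluster and less transcript per cell cannot be told apart.

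**Figure D1:**
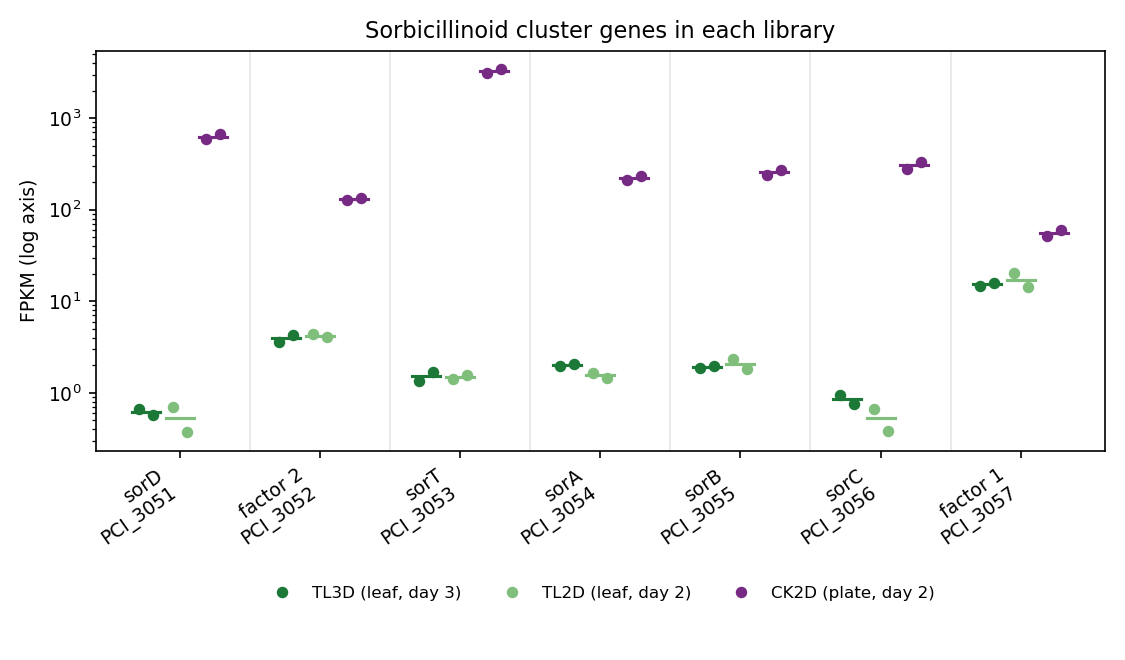
FPKM (log axis) of the 7 cluster genes in gene-number order, with a point for each library and a bar at the group mean, for TL3D, TL2D and CK2D. The plate libraries lie above the leaf libraries for every gene, with the widest gap for sorT (3306 FPKM on average in CK2D) and the narrowest for transcription factor 1.

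The order of the genes by level was nearly reversed between leaf and plate. In CK2D the mean levels ran from sorT (3306 ± 212 FPKM, SD, n = 2) through sorD, sorC, sorB, sorA and transcription factor 2 down to transcription factor 1 (56.0 ± 5.94 FPKM), and no neighbours in this order overlapped. In TL3D the order was transcription factor 1 (15.4 ± 0.805 FPKM), transcription factor 2, sorA, sorB, sorT, sorC and sorD (0.619 ± 0.0572 FPKM), again with no overlap between neighbours, although sorA and sorB averaged 2.01 and 1.91 FPKM. In TL2D both factors again led, and sorA overlapped sorT and sorD overlapped sorC. The highest member was 22.5 and 27.6 times the lowest in TL3D, 30.5 and 38.3 times in TL2D, and 60.9 and 57.4 times in CK2D.

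The summed level of the 7 genes was 25.2 and 27.3 FPKM in TL3D and 31.4 and 23.8 FPKM in TL2D, against 4665 and 5151 FPKM in CK2D. In CK2D this was 0.778% and 0.849% of the library's FPKM total. Transcription factor 1 made up 58.8% and 58.6% of the cluster's FPKM in TL3D and 64.5% and 59.5% in TL2D, against 1.11% and 1.17% in CK2D. sorT made up 5.31% and 6.18% in TL3D and 4.51% and 6.64% in TL2D, against 67.7% and 67.1% in CK2D. By FPKM, regulator transcript was thus the larger part of the cluster in the leaf libraries, and transporter transcript in the plate libraries.

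Ranked by FPKM among all 9385 genes, sorT stood at 8070 and 7875 in TL3D and at 7875 and 7620 in TL2D, against 13 and 12 in CK2D. sorD stood at 8436 and 8465 in TL3D and at 8284 and 8408 in TL2D, against 150 and 131 in CK2D. Transcription factor 1 moved least, at 5289 and 5105 in TL3D and 4404 and 5118 in TL2D, against 2032 and 1762 in CK2D. Between 7906 and 8217 genes per library reached 1 FPKM, so the leaf levels of sorD and sorC lay below that mark, and those of the other 5 genes above it. The read totals are unknown, so no counting interval can be given for these low values. FPKM per library summed to between 582600 and 614206.

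Changes were also fitted for every gene that reached 1 FPKM in 2 or more of a comparison's 4 libraries, with limma on log2(FPKM + 1). All 7 genes passed that filter in the comparisons with plates, sorD and sorC through the CK2D libraries alone. For TL2D against CK2D the fitted log2 changes were −10.37 ± 0.10 (SE) for sorT, −8.70 ± 0.15 for sorD and −7.65 ± 0.15 for sorC. They were −6.44 ± 0.11 for sorA, −6.39 ± 0.14 for sorB, −4.67 ± 0.10 for transcription factor 2 and −1.67 ± 0.20 for transcription factor 1. The 1 added before the logarithm makes these smaller than the ratios of means for genes near or below 1 FPKM. For TL3D against CK2D they ran from −10.36 ± 0.10 for sorT to −1.79 ± 0.11 for transcription factor 1. Over all tested genes the median was −0.10 for TL2D against CK2D (8286 genes) and −0.04 for TL3D against CK2D (8356 genes).

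Among those genes sorT had the lowest fitted change in both comparisons. In TL2D against CK2D, sorD ranked 5, sorC 8, sorA 13, sorB 14, transcription factor 2 ranked 27 and transcription factor 1 ranked 512 from the lowest. In TL3D against CK2D the ranks were 4 for sorD, 10 for sorC, 17 for sorA, 14 for sorB, 25 for transcription factor 2 and 212 for transcription factor 1. All 7 lay lower with no overlap between groups in both comparisons. That also held for 43.3% of all tested genes in TL3D against CK2D and 45.7% in TL2D against CK2D, where 37.7% and 36.6% lay higher with no overlap, and nothing is read from the count, since the genes were chosen with it known. These comparisons share the CK2D libraries and are given side by side only.

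**Figure D2:**
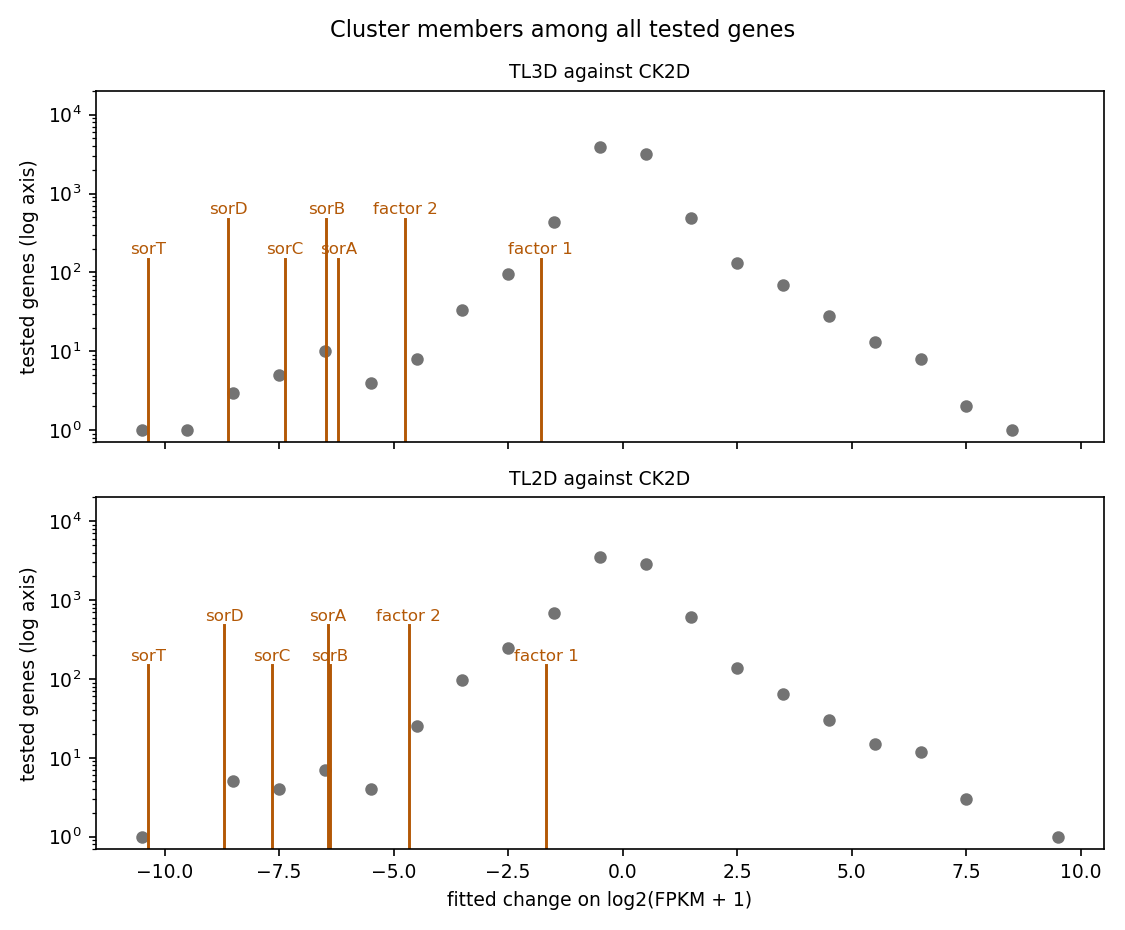
Number of tested genes (log axis) in bins of 1 log2 unit of the fitted change, as grey points at bin centres, with a line at each cluster gene, for TL3D against CK2D and TL2D against CK2D. sorT lies in the lowest occupied bin of both panels, and transcription factor 1 lies in the slope of the bulk at −1.79 and −1.67.

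Between the leaf groups the cluster genes stayed at low levels. In TL3D against TL2D the ratio of mean FPKM was 1.29 for sorA, 1.61 for sorC, 1.17 for sorD and 1.01 for sorT. It was 0.915 for sorB, 0.940 for transcription factor 2 and 0.896 for transcription factor 1. The sorA and sorC values lay higher in TL3D with no overlap, and those of the other 5 genes overlapped. sorD and sorC did not reach 1 FPKM in any leaf library and were left out of this fit, so 5 of the 7 were fitted. Their log2 changes ran from −0.13 ± 0.19 for transcription factor 1 to 0.23 ± 0.16 for sorA, around a median of −0.02 over all 8222 tested genes. Of those genes, 29.5% lay higher and 33.9% lower in TL3D with no overlap. The TL2D replicates differed 1.88-fold for sorD, 1.72-fold for sorC and 1.43-fold for transcription factor 1, whereas the TL3D replicates differed at most 1.26-fold for any member (sorT) and the CK2D replicates at most 1.17-fold (sorC).

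The genes numbered directly on either side were not lower on leaves. The files give no positions, so adjacent numbers are taken as such and no distance is known. PCI_3050, named as a processivity subunit of the DNA repair polymerase zeta, had 123 and 124 FPKM in TL3D and 131 and 134 FPKM in TL2D, against 76.5 and 87.6 FPKM in CK2D. It was higher on leaves (log2 0.59 ± 0.09, adjusted p = 0.00154 for TL3D against CK2D; 0.68 ± 0.10, adjusted p = 0.00792 for TL2D against CK2D), next in number to sorD, which was 1020-fold and 1190-fold lower. On the other side, PCI_3058, named importin subunit beta-5, a nuclear import receptor, had 18.2 and 19.4 FPKM in TL3D and 19.9 and 19.1 FPKM in TL2D, against 19.7 and 18.5 FPKM in CK2D. All 3 groups overlapped (adjusted p = 0.872 for TL3D against CK2D and 0.828 for TL2D against CK2D).

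Farther out, the acyltransferase gene PCI_3048 had 23.0 and 18.1 FPKM in TL3D and 28.7 and 23.6 FPKM in TL2D, against 101 and 98.7 FPKM in CK2D. It fell in both comparisons (log2 −2.24 ± 0.12, adjusted p = 7.24e-06 for TL3D; −1.90 ± 0.12, adjusted p = 0.00126 for TL2D), with a larger fitted fall than transcription factor 1. PCI_3049 reached at most 0.6002 FPKM in any library and was not tested. The unnamed gene PCI_3059 and the alpha-galactosidase gene PCI_3060 passed in TL3D against CK2D (log2 −0.37 ± 0.11, adjusted p = 0.0256, and −0.60 ± 0.13, adjusted p = 0.00644) and not in TL2D against CK2D (adjusted p = 0.341 and 0.473). Without TL2D replicate 1 both passed there (adjusted p = 0.00505 and 0.0226), and the TL3D call of PCI_3059 was lost without either TL3D replicate or without CK2D replicate 2 (adjusted p = 0.0596, 0.125 and 0.152). With the fit over all 6 libraries neither passed in TL3D against CK2D (adjusted p = 0.312 for PCI_3059 and 0.0676 for PCI_3060).

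Of the 20 genes within 10 numbers of the cluster, 19 were tested in TL3D against CK2D, where 4 were higher and 9 lower, and 18 in TL2D against CK2D, where 3 were higher and 6 lower. Over all tested genes 28.1% were called higher and 30.2% lower in TL3D against CK2D, and 24.8% and 29.4% in TL2D against CK2D. The neighbours' medians were −0.22 and −0.13. Their lowest fitted changes were those of PCI_3048. Their highest was 0.91 ± 0.14 in TL3D, for the unnamed gene PCI_3065 (adjusted p = 0.00126), and 0.72 ± 0.11 in TL2D, for PCI_3043, a tRNA-aminoacylation cofactor (adjusted p = 0.00815). PCI_3065 was lower in TL2D than in CK2D (−1.39 ± 0.21, adjusted p = 0.00774). In TL2D against CK2D the calls of PCI_3050, PCI_3043 and PCI_3065 were lost without either CK2D replicate (adjusted p from 0.0503 to 0.0773), and only 3 and 2 neighbours passed in those fits, without CK2D replicate 1 and 2 in turn.

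**Figure D3:**
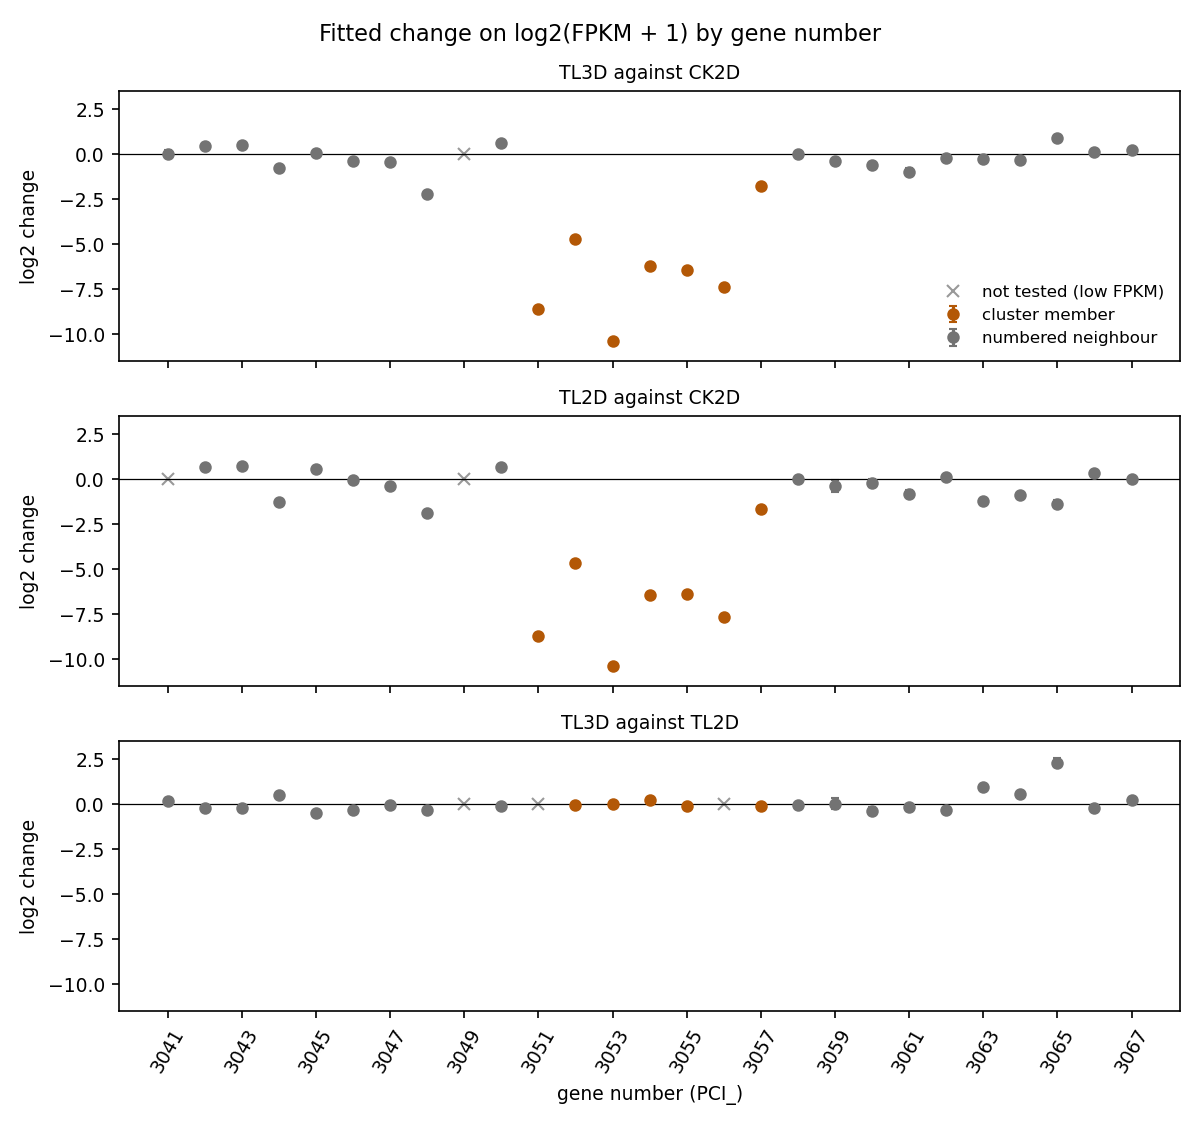
Fitted log2 change with SE bars for the genes numbered PCI_3041 to PCI_3067, in TL3D against CK2D, TL2D against CK2D and TL3D against TL2D, with cluster genes in orange, neighbours in grey and untested genes as crosses at 0. All 7 cluster genes lie below 0 against plates. Transcription factor 1 falls least of them, at −1.79 in TL3D and −1.67 in TL2D. That is less than the lowest neighbour, PCI_3048, at −2.24 and −1.90. The fitted cluster genes sit near 0 between the leaf groups.

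A pair of genes elsewhere carry the sorD name and need to be kept apart from PCI_3051. PCI_1393 had 4.57 and 4.92 FPKM in TL3D and 2.35 and 0.961 FPKM in TL2D, against 10.4 and 11.3 FPKM in CK2D. It was 2.29-fold lower in TL3D than in CK2D (log2 −1.04 ± 0.12, adjusted p = 0.000273) and 6.55-fold lower in TL2D (−2.21 ± 0.29, adjusted p = 0.00562). The TL2D call was lost without either CK2D replicate (adjusted p = 0.056 and 0.0595). PCI_4090 had 0.386 and 0.775 FPKM in TL3D and 0.713 and 0.631 FPKM in TL2D, against 0.297 and 0.343 FPKM in CK2D. Its leaf values lay above its plate values, but all were too low for a test, and no direction is read from them. Neither had a plate level near the 631 FPKM mean of PCI_3051. Reads shared between genes of like sequence could be split by the authors' counting, and this cannot be seen from FPKM.

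Likeness to the cluster was measured over the 6 libraries as the root mean square difference between a gene's log2(FPKM + 1), centred on its own mean, and the mean centred profile of the 7 members. The members themselves differed from their mean by 0.0731 (sorB), 0.126 (sorA), 0.475 (sorC), 0.861 (transcription factor 2), 1.00 (sorD), 1.81 (sorT) and 2.27 (transcription factor 1) log2 units. The 10 nearest genes outside the cluster differed by 0.135 to 0.503 log2 units. The 6 libraries are replicates of 3 groups and not independent conditions. Of these 10, 6 have numbers in PCI_3398 to PCI_3407, the genes with citrinin-type names. They are the esterase mpl1 (PCI_3405), the dehydrogenase mpl7 (PCI_3399), the dioxygenase mpl2 (PCI_3404), the transporter mrr1 (PCI_3407), the citrinin polyketide synthase (PCI_3406) and the oxidoreductase dbaF (PCI_3398).

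The other 4 are not annotated to a pigment or toxin pathway. The unnamed gene PCI_2668 had 0.229 ± 0.0380 FPKM in TL3D and 0.0694 ± 0.0323 FPKM in TL2D, against 77.9 ± 7.81 FPKM in CK2D (SD, n = 2 each, here and below). The oxalate decarboxylase gene PCI_9298, for an enzyme that breaks down oxalic acid, averaged 0.524 ± 0.113 FPKM in TL3D and 1.03 ± 0.304 FPKM in TL2D, against 127 ± 34.3 FPKM in CK2D. The hemophore gene cfmB (PCI_2843), for a surface protein of the heme-binding type, averaged 3.52 ± 0.514 FPKM in TL3D and 5.46 ± 0.0802 FPKM in TL2D, against 299 ± 71.0 FPKM in CK2D. The carbohydrate binding domain gene PCI_4276 averaged 1.97 ± 0.612 FPKM in TL3D and 2.26 ± 0.449 FPKM in TL2D, against 145 ± 16.0 FPKM in CK2D.

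The genes numbered PCI_3398 to PCI_3407 resemble the sorbicillinoid cluster in how their regulator stood against their enzymes. Citrinin is a yellow polyketide mycotoxin, and mrl3 is annotated as the transcriptional activator of its cluster. mrl3 (PCI_3403) had 14.3 and 14.9 FPKM in TL3D and 16.9 and 12.7 FPKM in TL2D, against 52.9 and 57.0 FPKM in CK2D. Sorbicillinoid factor 1 had nearly the same level in each group, at group means of 15.4, 17.2 and 56.0 FPKM in TL3D, TL2D and CK2D. mrl3 was 3.77-fold lower in TL3D (log2 −1.84 ± 0.09) and 3.71-fold lower in TL2D (−1.84 ± 0.16). Because mrl3 was chosen after its values were seen, these values and the likeness are given as a description and carry no test.

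The transporter of that set, mrr1 (PCI_3407), had 0.0839 and 0.312 FPKM in TL3D and 0.304 and 0.288 FPKM in TL2D, against 94.0 and 79.0 FPKM in CK2D. Unlike sorT, it was the set's lowest gene but mrl3 on plates. The highest was the unnamed gene PCI_3401, with 3.37 and 3.24 FPKM in TL3D and 10.5 and 6.90 FPKM in TL2D, against 4695 and 3737 FPKM in CK2D. The median log2 changes of the 10 genes were −7.02 in TL3D and −7.14 in TL2D, beside −6.47 and −6.44 for the 7 sorbicillinoid genes, and no test compared the sets. Of the 10, 5 reached 1 FPKM in CK2D alone and had to differ once they passed the filter. The other 5 were also called lower in both comparisons, as were 30.2% of all tested genes in TL3D and 29.4% in TL2D. Of these, PCI_3400 had 0.759 and 1.18 FPKM in TL2D and passed that filter only with its CK2D values. Nothing is read from these calls, since the set was chosen with earlier results known. mpl1 and mpl2 were also picked above for likeness to the cluster.

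**Figure D4:**
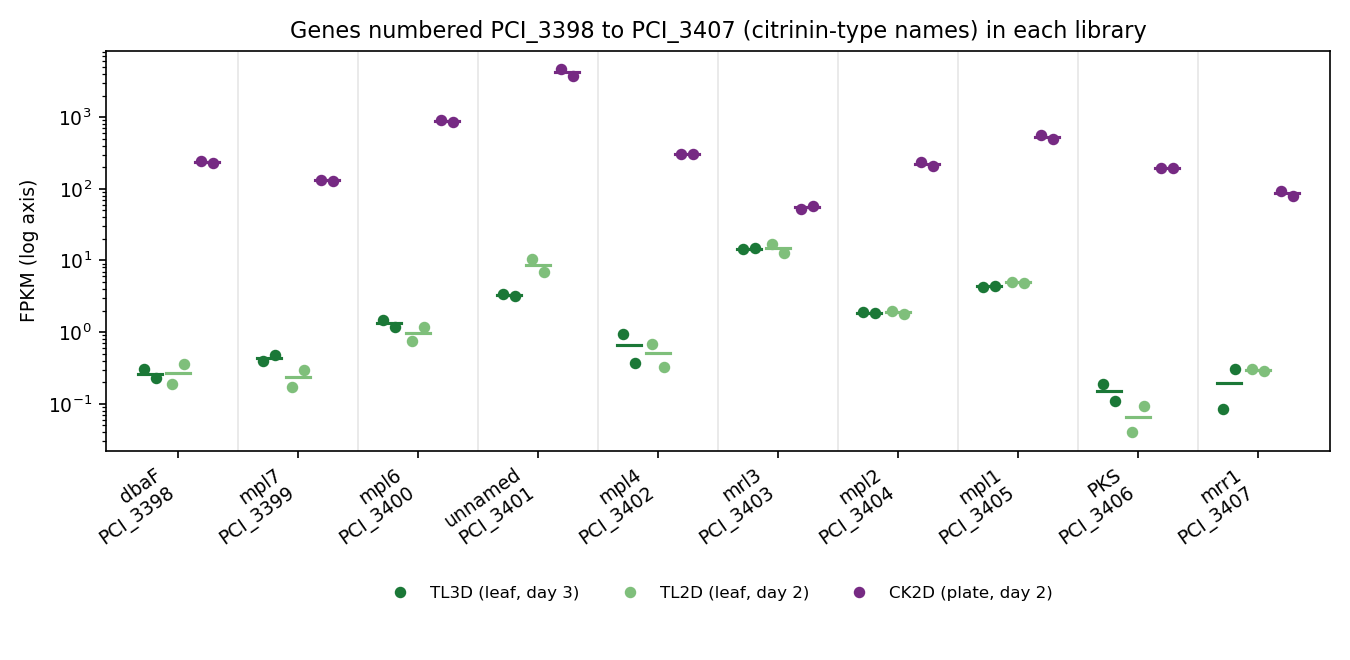
FPKM (log axis) of the genes numbered PCI_3398 to PCI_3407, with a point for each library and a bar at the group mean, for TL3D, TL2D and CK2D. The plate libraries lie above the leaf libraries for all 10 genes, with the narrowest gap for the activator mrl3.

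Most of the other polyketide and peptide synthase genes that were tested had smaller fitted changes than sorA and sorB. Apart from sorA and sorB, 37 genes have a product name of a polyketide synthase, a peptide synthetase or a terpene cyclase, and 24 were tested in each comparison with plates. In TL3D against CK2D 3 were higher and 15 lower, with a median of −0.75, and in TL2D against CK2D 3 were higher and 15 lower, with a median of −0.83. Of all tested genes 28.1% were called higher and 30.2% lower in TL3D, and 24.8% and 29.4% in TL2D. The citrinin synthase PCI_3406, one of the 10 genes chosen above for likeness to the cluster, had the largest fitted fall, at log2 −7.43 ± 0.10 in TL3D and −7.54 ± 0.11 in TL2D, larger than those of sorA and sorB. It reached 1 FPKM in CK2D alone, so its fall is given as a description. The largest fitted rise in TL3D was that of PCI_3666, named after a bacterial phenolphthiocerol synthase subunit (1.57 ± 0.16, adjusted p = 0.00019), with a ratio of means of 4.30. PCI_8142, annotated FUB8, had 1.14 and 0.991 FPKM in TL3D and 3.61 and 5.73 FPKM in TL2D, against 0.194 and 0.131 FPKM in CK2D. It was 6.55-fold higher in TL3D, where it was not tested, and 28.7-fold higher in TL2D, where it reached 1 FPKM through TL2D alone. Its fitted change in TL2D, the largest of the list, was 2.26 ± 0.24, and 4.16 with a pseudocount of 0.1. In each comparison some of the 24 reached 1 FPKM through CK2D alone, 3 in TL3D and 4 in TL2D. Without CK2D replicates 1 and 2 in turn, 8 and 6 of these genes passed in TL2D against CK2D.

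Acetyl-CoA and malonyl-CoA are the building blocks of polyketides. Among 18 genes of their supply and of carrier activation, a list that also takes in pyruvate dehydrogenase kinases by name, 2 rose and 10 fell in TL3D against CK2D (median −0.26), and 4 rose and 8 fell in TL2D against CK2D (median −0.17). Over all tested genes 28.1% rose and 30.2% fell in TL3D, and 24.8% and 29.4% in TL2D. Acetyl-CoA carboxylase (PCI_2724), which makes malonyl-CoA, had 58.8 and 73.2 FPKM in TL3D and 74.6 and 87.3 FPKM in TL2D, against 221 and 255 FPKM in CK2D. It had the largest fall of the list, 3.61-fold in TL3D (log2 −1.84 ± 0.13, adjusted p = 2.33e-05) and 2.94-fold in TL2D (−1.55 ± 0.13, adjusted p = 0.00204). The citrate synthase-like gene PCI_9437 had the largest rise, 2.51-fold in TL3D (1.32 ± 0.08, adjusted p = 1.11e-05) and 3.56-fold in TL2D (1.82 ± 0.11, adjusted p = 0.00109). In TL2D against CK2D only 2 of the 18 passed without either CK2D replicate.

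Regulators of secondary metabolism were called in both directions. In *Aspergillus*, laeA and the velvet proteins veA and velB form a nuclear complex that links development and secondary metabolism, and creA represses genes while glucose is present. Of 13 such regulators, 5 rose and 2 fell in TL3D against CK2D, and 4 rose and 5 fell in TL2D against CK2D. Of all tested genes 28.1% rose and 30.2% fell in TL3D, and 24.8% and 29.4% in TL2D. The regulators' counts were not tested against these shares, and their medians were −0.02 and −0.11. Only 3 and 4 passed in TL2D without CK2D replicates 1 and 2 in turn. The laeA gene PCI_0056 had 31.6 and 34.4 FPKM in TL3D and 41.8 and 33.9 FPKM in TL2D, against 41.1 and 40.6 FPKM in CK2D. It overlapped the plates in TL2D (adjusted p = 0.494) and was slightly lower in TL3D (log2 −0.30 ± 0.09, adjusted p = 0.0256; lost without TL3D replicate 1 and without either CK2D replicate, adjusted p = 0.117, 0.0871 and 0.0711, after median log ratio scaling, adjusted p = 0.0542, and in the fit over all 6 libraries, adjusted p = 0.0922).

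A further gene annotated laeA, PCI_6080, had 26.4 and 26.1 FPKM in TL3D and 16.8 and 16.1 FPKM in TL2D, against 3.10 and 5.14 FPKM in CK2D. It was higher in TL3D (log2 2.44 ± 0.18, adjusted p = 3.8e-05) and in TL2D (1.80 ± 0.23, adjusted p = 0.00515), the opposite direction to the cluster. velC (PCI_1944), a velvet gene tied to sexual development, was also higher, 3.28-fold in TL3D (1.67 ± 0.09, adjusted p = 7.86e-06) and 3.46-fold in TL2D (1.75 ± 0.09, adjusted p = 0.000899). The velvet B gene PCI_5145 had 20.9 and 22.0 FPKM in TL3D and 10.6 and 7.56 FPKM in TL2D, against 25.5 and 21.9 FPKM in CK2D. It was lower in TL2D (−1.31 ± 0.19, adjusted p = 0.00742) and did not pass in TL3D (adjusted p = 0.308). veA (PCI_1579) was higher in TL2D (0.63 ± 0.12, adjusted p = 0.014) and did not pass in TL3D (0.23 ± 0.09, adjusted p = 0.0624, but 0.0484 and 0.0308 after upper-quartile and median log ratio scaling).

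creA (PCI_1056) had 125 and 136 FPKM in TL3D and 127 and 138 FPKM in TL2D, against 152 and 143 FPKM in CK2D, and did not pass in either (adjusted p = 0.11 and 0.209). The stress regulator yap1 (PCI_1176) had the largest fall of this list in TL3D (−0.77 ± 0.09, adjusted p = 0.000289) and was also lower in TL2D (−0.89 ± 0.10, adjusted p = 0.00442). The largest fall in TL2D was that of vosA (PCI_8689; −1.94 ± 0.22, adjusted p = 0.00422). In TL2D against CK2D the calls of PCI_5145, PCI_1579 and yap1 were lost without either CK2D replicate (adjusted p from 0.0533 to 0.105), and that of vosA without CK2D replicate 1 (adjusted p = 0.0514).

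The sampled growth could also hold conidiophores and conidia, whose development is controlled by brlA, abaA, wetA and vosA, with albA for the spore pigment. The 5 markers summed to 561 and 670 FPKM in TL3D and 318 and 185 FPKM in TL2D, against 1232 and 1113 FPKM in CK2D, and none was listed at 0 in any library. All 5 passed as lower in TL2D against CK2D, where 29.4% of all tested genes did, and 4 of 5 in TL3D against CK2D, where 30.2% did. Without either CK2D replicate the TL2D calls of brlA (PCI_2178), abaA (PCI_1856) and albA (PCI_7912) were lost (adjusted p from 0.0615 to 0.0807), as was that of vosA without CK2D replicate 1 (adjusted p = 0.0514). In TL3D the call of wetA (PCI_1706) was lost without TL3D replicate 1 and without CK2D replicate 1 (adjusted p = 0.143 and 0.0719), and after median log ratio scaling (adjusted p = 0.0509). In the fit over all 6 libraries the TL3D calls of wetA, abaA and albA were lost (adjusted p = 0.359, 0.0706 and 0.0816).

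Between the leaf groups 2 of the 5 markers passed, both higher in TL3D. Of all 8222 tested genes, 6.77% were called higher in TL3D than in TL2D and 3.3% lower. wetA had 131 and 155 FPKM in TL3D, against 34.4 and 18.1 FPKM in TL2D (log2 2.46 ± 0.31, adjusted p = 0.0222), and vosA had 50.1 and 49.96 FPKM in TL3D, against 17.5 and 11.2 FPKM in TL2D (1.77 ± 0.22, adjusted p = 0.0219). brlA overlapped between the leaf groups, and abaA and albA lay higher in TL3D without passing (adjusted p = 0.0694 and 0.0597). In TL3D the markers' mean FPKM were 3.06-fold (albA), 1.84-fold (abaA), 1.83-fold (brlA), 1.26-fold (wetA) and 1.13-fold (vosA) lower than in CK2D, and in TL2D they were 21.5-fold, 4.99-fold, 2.57-fold, 6.85-fold and 3.95-fold lower, in the same order. The part of spore-forming cells in the cluster's levels was not tested.

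**Figure D5:**
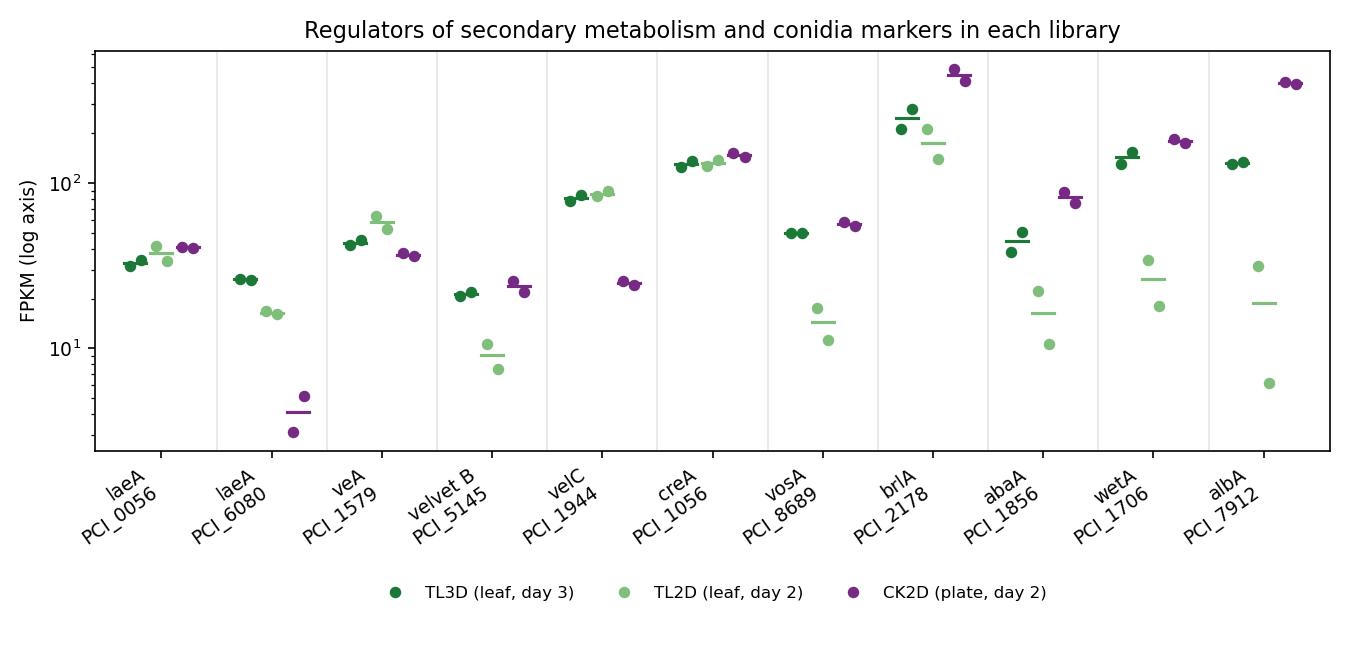
FPKM (log axis) of regulators of secondary metabolism and of conidia markers, with a point for each library and a bar at the group mean, for TL3D, TL2D and CK2D. The laeA gene PCI_6080 and velC lie higher on leaves, creA spans 125 to 152 FPKM in all libraries, and vosA, abaA, wetA and albA lie lowest in TL2D.

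In TL3D against TL2D each of these lists had fewer called genes than in either comparison with plates. Over all 8222 tested genes 6.77% were called higher and 3.3% lower. Of 13 regulators 3 were higher, vosA, the velvet B gene PCI_5145 (log2 1.17 ± 0.18, adjusted p = 0.0303) and the laeA gene PCI_6080 (0.64 ± 0.11, adjusted p = 0.0344), and by limma 0 were lower (2 lower at an unadjusted p under 0.05). The call of PCI_6080 was lost in the fit over all 6 libraries (adjusted p = 0.0705). Of 22 tested synthase genes 3 were higher and 3 lower, with the largest rise in the peptide synthetase gene anaPS (PCI_8005; 3.24 ± 0.57, adjusted p = 0.0377). It had 74.0 and 73.5 FPKM in TL3D, against 13.5 and 3.30 FPKM in TL2D, and its call was lost with a pseudocount of 0.1 and with no filter (adjusted p = 0.0501 and 0.0562). Of 19 tested neighbours 3 were higher, led by PCI_3065 (2.29 ± 0.25, adjusted p = 0.0178). Of the 5 tested genes of the citrinin-type set, PCI_3401 was lower (−1.15 ± 0.22, adjusted p = 0.0428, and 0.0597 with no filter). By limma, 0 of the 18 precursor genes passed, with 4 at an unadjusted p under 0.05, and in the fit over all 6 libraries 2 passed. Without TL3D replicates 1 and 2 in turn no gene of the 8222 passed by limma, with 1074 and 1198 at an unadjusted p under 0.05, while the fitted changes moved little (wetA 2.59 and 2.34, vosA 1.76 and 1.77). Those fits take the spread from the TL2D libraries alone.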

How the data were processed

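RNA of 6 libraries was analysed from 2 tables. The authors deposited FPKM per gene and replicate. Per the submitters' processing notes, Cufflinks was used. The sources used here do not give its version, an aligner, a build, an annotation or read totals, so depth is unknown. The authors' log2 column is the log2 of the ratio of mean FPKM. It was recomputed within 0.001 for 100% of genes, with means of 0 set to 0.0001 FPKM. Their fold change column was not compared. The FDR that the authors deposited is an adjusted p-value from a test not named in the sources used here, and was not used. The TL2D columns are identical in both tables.

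FPKM as deposited were tested in R 4.3.3 with limma 3.58.1 (eBayes with trend, log2(FPKM + 1), 2 residual degrees of freedom). The fit was also run on simulated data with the same spread in both groups, which does not cover groups of unlike spread. Benjamini-Hochberg adjustment ran over every tested gene, and calls needed an adjusted p under 0.05. The labels name no batch. Members, lists and naming rule were chosen with earlier results of these data known. Named were all 7 members, the 3 neighbours on each side, other genes with a sorbicillin-type name, each list's largest called rise and fall, velvet, laeA and creA genes, conidia markers and the 10 most similar genes. Others from the citrinin-type set (mrl3, mrr1) were chosen after their values were seen. From the regulator list, 20 NmrA-like genes and 5 AP-1 adaptor subunits, matched by name alone, were left out after their values were seen. Alternatives were a pseudocount of 0.1, no filter, scaling by upper quartile or by median log ratio, a model of all 6 libraries, a replicate block and each replicate left out. No gene ID matched the 11657 RefSeq genes (0 matches), so no sequence is shown.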

Additional observations from a re-analysis of the deposited data

How the results depend on the processing

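Across the alternatives the 7 cluster genes kept their direction against plates. With a pseudocount of 0.1 their median log2 change was −6.99 in TL3D against CK2D and −7.06 in TL2D against CK2D (−6.47 and −6.44 with 1), by construction, since low values are raised less. Leaving out each replicate gave −6.55 to −6.38 and −6.51 to −6.37. In TL3D against TL2D it was −0.07 over the 5 fitted genes, 0.01 over all 7 with no filter, and −0.12 to 0.04 with a replicate left out. Genes called numbered 4873 in TL3D against CK2D (3673 to 4324 with a replicate left out), 4493 in TL2D against CK2D (1131 to 5229; 1134 and 1131 without CK2D replicates 1 and 2) and 828 in TL3D against TL2D (0 to 3251; 1515 with the fit over all 6 libraries). With a replicate left out, the called genes in TL3D against CK2D, TL2D against CK2D and TL3D against TL2D ranged over 8 to 12, 2 to 13 and 0 to 10 for neighbours, 17 to 18, 6 to 20 and 0 to 14 for synthases, 7 to 9, 2 to 12 and 0 to 11 for precursor genes, 5 to 6, 3 to 11 and 0 to 7 for regulators, and 10 to 10, 10 to 10 and 0 to 1 for the citrinin-type set. A lone replicate was assumed to vary like the other group. With the fit over all 6 libraries, 8 neighbours, 7 precursor genes and 4 regulators passed in TL3D against CK2D, and 11 synthases and 2 precursor genes in TL3D against TL2D. With no filter 0 genes of the citrinin-type set passed in TL3D against TL2D. The change of PCI_3059 there, 0.02, was −0.42 without TL2D replicate 2 and 0.46 without TL2D replicate 1. Among single genes, 1177 values under an alternative stayed called or stayed uncalled, and the uncalled ones could change sign. The cluster genes, which have no test, were counted there if they moved by less than the combined SD of both groups. A further 64 lost the call, 25 gained it, 13 without a test moved more, and 1 with a call reversed. The cause of these shifts was not tested.

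The replicate numbers are not stated to pair the libraries, and deviations of same-numbered replicates correlated at −0.274, −0.076 and 0.109 over 7586 genes. With the replicate number as a block, 4368, 3568 and 739 genes were called in TL3D against CK2D, TL2D against CK2D and TL3D against TL2D. The block lost the calls of the laeA genes PCI_0056 in TL3D against CK2D (adjusted p = 0.061) and PCI_6080 in TL3D against TL2D (adjusted p = 0.0606). It gained that of albA in TL3D against TL2D (adjusted p = 0.0373). With it, 7 precursor genes passed in TL2D against CK2D (12 without the block) and 1 neighbour in TL3D against TL2D (3 without the block). The unknown read depth limits what can be said of values below 1 FPKM.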
